A study of Mus musculus with 56 samples.

Results

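To ask how far PD1-expressing memory T cells differ from PD1-negative ones after pregnancy, RNA from the S+P C7 subset was compared with RNA from the S+P C4 subset. Both subsets are OVA:Kb tetramer-binding CD8+ T cells (TFGS, T cells specific for an antigen shared by fetus and graft), sorted from spleen and lymph nodes of individual C57BL/6 females soon after delivery. All of these mice had first been grafted with allogeneic skin from 2W-OVA.BALB/c donors and had then carried a semi-allogeneic pregnancy sired by males of that strain. S+P C7 was gated as PD1+CD73- and S+P C4 as PD1-. S+P C5, the PD1+CD73+ subset of the same mice, served as the nearest other population. The comparison held 11 samples of the 30 in the series, 5 of S+P C7 and 6 of S+P C4, built from 19 of the 56 libraries, and 5 replicate numbers were present in both subsets. Each library came from 200 sorted cells, so that rare transcripts were sampled from few cells. The labels mark technical libraries within a replicate but do not say that each replicate number is 1 mouse, and the p-values measure the spread between these samples.

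PD-1, encoded by *Pdcd1*, is an inhibitory receptor that is induced by antigen-receptor signals and damps them when its ligands are engaged. T cells that meet antigen for long periods keep PD-1, gain further inhibitory receptors such as TIGIT and express the transcription factor TOX, a state called exhaustion. Resting memory cells depend instead on factors such as KLF2, SATB1 and LEF1, on the IL-7 receptor for survival, and on CCR7 for entry into lymph nodes. CD73, encoded by *Nt5e*, is a surface enzyme that makes adenosine from AMP, and the folate receptor FR4 (*Izumo1r*) marks anergic T cells together with it.

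No single gene separated the subsets past the thresholds in edgeR. Some genes of the exhaustion and quiescence programs kept 1 order in every pair, as did 3.35% (higher) and 2.3% (lower) of all genes tested. *Tox*, *Tigit*, *Rgs1* and *Icos* were higher in S+P C7 in 5 of 5 same-numbered pairs, and *Satb1*, *Klf2*, *Ly6c2*, *Ccr7* and *Il7r* were lower in 5 of 5. Each was among the 2 members of smallest unadjusted p in its list, so this order describes them and is not a test. With edgeR's quasi-likelihood test and the replicate number as a block, 0 of 14016 genes (0%) passed the thresholds of the study's methods, an adjusted p under 0.1 together with a log2 fold change beyond 0.9 in either direction. The smallest adjusted p was 0.630, for *Ly6c2* and for *Ifi27l2a*. At an unadjusted p under 0.05, 299 genes (2.13%) were higher and 105 genes (0.749%) lower in S+P C7. The study itself applied these thresholds in DESeq2. Run here on the same summed counts but on 36541 genes with no filter on low counts, DESeq2 called 685 genes with the block and 314 without it. Of these, 17 and 7 were members of the gene lists described here. The list members called were not set against the number tested, so they do not show whether the lists exceed the background. Below, passing the thresholds refers to edgeR with the block. Over all genes tested, 470 (3.35%) were higher in S+P C7 in every pair and 323 (2.3%) were lower in every pair. The ranges of the groups did not overlap for 47 genes (0.335%) that were higher and 11 genes (0.0785%) that were lower.

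3 samples stood apart at the low end of detected genes. The single libraries of S+P C4 replicate 2, S+P C4 replicate 3 and S+P C7 replicate 3 had 8002, 7436 and 7879 detected genes, where the other 8 samples had 12383 to 26805. Total counts ranged from 15547934 to 46389569 per sample. In the library labelled S+P C7 replicate 3, *Pdcd1* had 1 count, which goes against its PD1+ label, and markers of red cells, B cells and dendritic cells were high. *Hba-a1*, a hemoglobin gene, measured 9679 CPM (counts scaled to a common library size with TMM factors) there and at most 93.4 CPM in the other 4 S+P C7 samples. *Ighm*, the immunoglobulin M heavy chain, measured 7932 CPM in that library and at most 125 CPM in the other 4, and *Cd74*, which chaperones MHC class II, 5714 CPM against at most 11.2 CPM. The summed level of 10 dendritic cell markers was 11287 CPM in that library, 28.5 to 90.6 CPM in the other 4 and 16.3 to 135 CPM in S+P C4. The 10 B cell markers summed to 105 to 274 CPM in those 4 and 1.21 to 494 CPM in S+P C4, and the 9 red cell and platelet markers to 0.685 to 207 CPM and 0.0505 to 413 CPM. The 11 markers of CD8 T cells summed to 8697 to 12961 CPM in S+P C4 and 10665 to 13852 CPM in S+P C7, with *Cd8a* at 559 CPM or more in every sample. The 7 markers of CD4 and regulatory T cells summed to 24.7 to 355 CPM in S+P C7 and 29.3 to 449 CPM in S+P C4, and to 85.0 to 355 CPM and 72.4 to 193 CPM without the 3 samples. Among these 7, the defining *Cd4* was at 0 in 5 of 6 S+P C4 and 4 of 5 S+P C7 samples, and *Foxp3* in 6 of 6 and 3 of 5. The 10 macrophage and monocyte markers summed to 65.5 to 96.99 CPM in S+P C7 and 0.392 to 42.6 CPM in S+P C4, so that these groups did not overlap. *Cd14* was at 0 in all 11 samples. The 2 of these 10 genes that were tested summed to 58.2 to 82.0 CPM in S+P C7 replicates 1, 4, 5 and 6. Their sum was 0 in S+P C7 replicate 3 and 0 to 35.0 CPM in S+P C4. The 6 NK cell markers, some of which CD8 T cells share, summed to 895 to 6293 CPM in S+P C7 and 3.72 to 7014 CPM in S+P C4. The part of these other markers in the results was not tested.

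**Figure D1:**
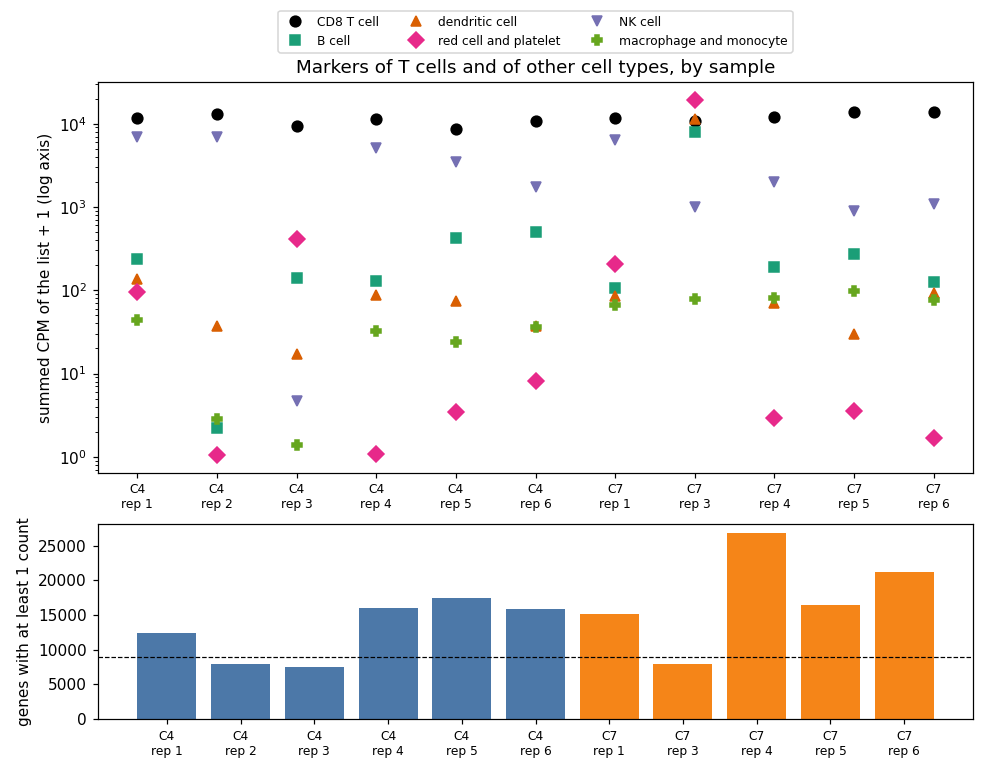
Summed CPM of markers of CD8 T cells and of 5 other cell types (upper panel, log axis) and the number of genes with at least 1 count (lower panel) in each S+P C4 and S+P C7 sample, with a dashed line at 9000 genes. Red cell, dendritic cell and B cell markers reach 19347, 11287 and 7932 CPM in S+P C7 replicate 3, while CD8 T cell markers stay between 8697 and 13852 CPM in all 11 samples.

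The number of detected genes was 17517 ± 7063 (SD, 5 samples) in S+P C7 and 12848 ± 4307 (SD, 6 samples) in S+P C4. It was higher in S+P C7 in 4 of 5 pairs, by a mean of 3700 ± 4658 (SD), with p = 0.188 in a two-sided exact sign-flip permutation test whose smallest possible p was 0.063. S+P C7 replicates 4 and 6 had the most, with 26805 and 21247 genes. In each, technical library B held more genes than A. The counts were 25514 against 13907 in replicate 4 and 18754 against 13688 in replicate 6. The part of these 2 libraries in low-level genes that were higher in S+P C7 was not tested. The rRNA gene with most counts took 14.7% ± 4.80 (SD) of counts in S+P C7 and 17.9% ± 6.02 (SD) in S+P C4, and the exact sign-flip permutation p over the pairs was 0.438. With the 3 samples under 9000 genes left out together, the share of genes at an unadjusted p under 0.05 was 8.01% (1198 of 14951, with 768 or 5.14% of the genes higher and 430 or 2.88% lower), the smallest adjusted p became 0.156, and edgeR again called 0. Without them the groups did not overlap for 325 genes (2.32%) higher and 178 genes (1.27%) lower in S+P C7.

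The sorting genes followed the gates in part. *Pdcd1* (chromosome 1, 93966027 to 93980312 on GRCm39) had a lowest, median and highest level of 0, 54.7 and 130.0 CPM in S+P C4. In S+P C7 replicates 1, 3, 4, 5 and 6 it measured 164, 0.0450, 236, 468 and 579 CPM. In pairs 1, 4, 5 and 6 the S+P C7 sample was above its S+P C4 partner, pair 3 held 1 count against 0, and the groups overlapped only through replicate 3. The log2 fold change was 1.94 ± 1.25 (SE) (unadjusted p = 0.144), and 2.11 without the 3 samples (unadjusted p = 4.22e-04, adjusted p = 0.274). PD1 was the gate, so this gene checks the sort rather than adding a result. S+P C5, the other PD1+ subset, had 89.9 to 408 CPM.

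*Nt5e* (chromosome 9, 88209089 to 88254146) measured 53.2, 0, 23.3, 43.5 and 13.4 CPM in S+P C7, and 0, 65.7 and 120.4 CPM (lowest, median and highest) in S+P C4. It was lower in S+P C7 in 4 of 5 pairs and at 0 in both samples of the remaining pair. The log2 fold change was -1.38 ± 1.17 (SE) with an unadjusted p of 0.259. Against the CD73+ subset S+P C5, where *Nt5e* ranged from 22.1 to 169 CPM, the log2 difference of S+P C7 was -3.48 (unadjusted p = 0.029), again along the gate. *Izumo1r* had overlapping levels, with 5.00, 21.0 and 187 CPM in S+P C4 and 6.99, 17.0, 50.2, 132 and 22.6 CPM in S+P C7 and an S+P C7 value higher in 2 of 5 pairs. *Cd44*, the adhesion receptor of antigen-experienced T cells, had a log2 fold change of -0.12 ± 0.40 (SE), which became 0.33 without the 3 samples.

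**Figure D2:**
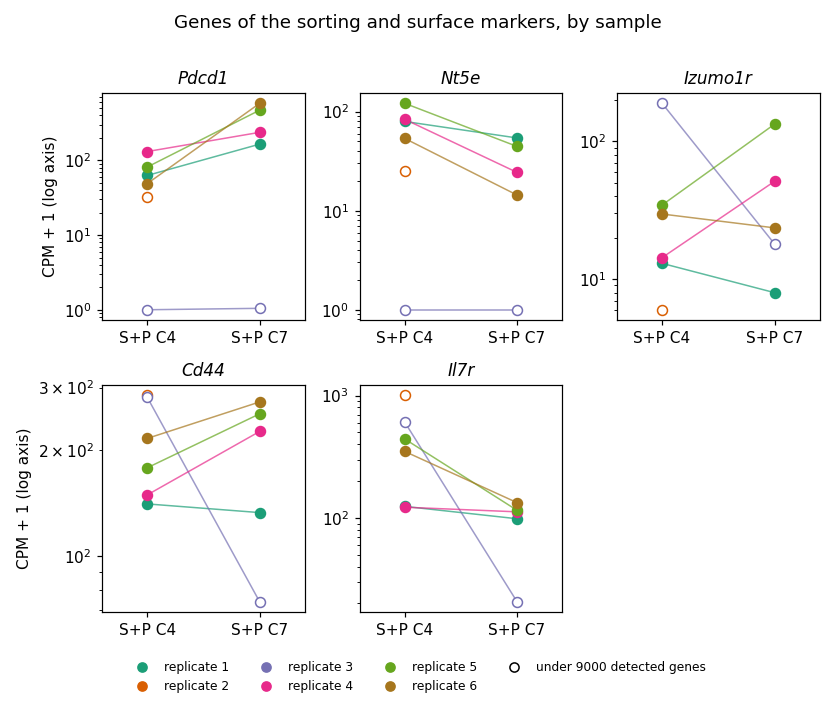
CPM + 1 (log axis) of 5 sorting and surface marker genes in S+P C4 and S+P C7, one point per sample and lines joining the same replicate number, with open points for samples under 9000 detected genes. *Pdcd1* is higher in S+P C7 in 4 pairs and near 0 on both sides in pair 3, and *Il7r* is lower in 5 of 5.

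Among 16 inhibitory receptor genes tested, 14 had a positive log2 fold change and 0 passed the thresholds, with 1 at an unadjusted p under 0.05. Their median log2 fold change was 1.23, beside 0.19 over all genes tested, and 0.92 without the 3 samples, beside 0.06 over all genes. Without them, 6 were higher and 0 lower at an unadjusted p under 0.05. *Tigit*, the receptor for CD155, measured 0.196, 107 and 191 CPM (lowest, median and highest) in S+P C4. In S+P C7 it measured 128, 19.9, 469.9, 657 and 527 CPM in replicates 1, 3, 4, 5 and 6. S+P C7 was higher in 5 of 5 pairs, and only replicates 1 and 3 lay inside the S+P C4 range. This gave a log2 fold change of 1.83 ± 0.78 (SE) (unadjusted p = 0.0337, adjusted p = 1.00), and 1.84 without the 3 samples (unadjusted p = 7.56e-05, adjusted p = 0.257). *Cd96*, which binds the same ligand, went against the list, with a log2 fold change of -0.69 ± 0.42 (SE) and a lower value in S+P C7 in 4 of 5 pairs. *Havcr2* (TIM-3), *Lag3* and *Ctla4*, named after their values had been seen, had log2 fold changes of 2.45, 0.84 and 0.59 with unadjusted p of 0.134, 0.489 and 0.644.

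The start regions of *Tigit*, higher in S+P C7 in every pair, and *Il7r*, lower in every pair, are printed because they let the regulatory letters of 1 gene of each direction be read. Both are RefSeq sequences on GRCm38.p6, from 250 bases before to 50 bases after the annotated start, written 5′ to 3′ on the gene's strand. Searched on both strands were the E-box letters CAGGTG and CAGCTG, the NFAT core GGAAAA, the AP-1 letters TGACTCA and TGAGTCA, the TCF/LEF letters CTTTGAA, the NR4A letters AAAGGTCA, the T-box letters AGGTGTGA and the RUNX letters TGTGGTTT, and capitals mark the matches.
Tigit, chr16:43664135-43664434, minus strand: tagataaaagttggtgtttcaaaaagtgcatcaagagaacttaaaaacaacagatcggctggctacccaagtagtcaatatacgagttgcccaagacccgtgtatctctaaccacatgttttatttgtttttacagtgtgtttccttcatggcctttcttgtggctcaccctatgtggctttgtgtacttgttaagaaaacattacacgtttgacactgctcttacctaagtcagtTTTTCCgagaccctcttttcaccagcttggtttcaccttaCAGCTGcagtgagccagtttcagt
Il7r, chr15:9529827-9530126, minus strand: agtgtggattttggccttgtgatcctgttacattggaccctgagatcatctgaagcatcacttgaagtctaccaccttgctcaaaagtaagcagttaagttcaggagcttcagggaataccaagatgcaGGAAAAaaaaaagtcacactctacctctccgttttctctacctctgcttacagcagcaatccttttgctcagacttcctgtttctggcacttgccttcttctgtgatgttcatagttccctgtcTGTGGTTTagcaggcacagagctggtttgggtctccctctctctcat
The *Tigit* window held the reverse of the NFAT core (TTTTCC) at position 237 and an E-box at 277, counted from the first base shown. The *Il7r* window held an NFAT core at 130 and the RUNX letters at 254. Of 32851 promoter windows of this length, 23.4% held the NFAT core, 32.9% an E-box and 1.78% the RUNX letters. The matches describe these letters only.

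Of 25 exhaustion and effector transcription factor genes, 19 had a positive log2 fold change and 0 passed the thresholds, with 3 at an unadjusted p under 0.05, all 3 higher. The median log2 fold change was 0.32, or 0.09 without the 3 samples, where 6 were higher and 6 lower at an unadjusted p under 0.05. *Tox* (chromosome 4, 6686353 to 6991644 on GRCm39), which programs the exhausted state, measured 26.5, 169.9 and 224 CPM (lowest, median and highest) in S+P C4. It measured 148, 161, 390.5, 473 and 585 CPM in S+P C7. Each S+P C7 sample exceeded its partner, while replicates 1 and 3 stayed below the highest S+P C4 sample. Its log2 fold change was 1.52 ± 0.41 (SE) (unadjusted p = 0.00247, adjusted p = 1.00), and 1.48 without the 3 samples. *Tox* overlaps a long noncoding gene on the other strand, and whether reads were counted by strand is not given in the sources used here, which holds for each overlap named below. Its relative *Tox2* was at 0 in 3 of 6 S+P C4 samples and at most 12.3 CPM in the others, and measured 8.93, 0, 47.2, 51.1 and 55.5 CPM in S+P C7. *Eomes*, a T-box factor of effector and exhausted cells named after its values had been seen, was higher in S+P C7 in 5 of 5 pairs with a log2 fold change of 1.20 ± 0.84 (SE) and an unadjusted p of 0.172.

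Stem, memory and quiescence transcription factor genes lay the other way. Of 17 tested, 14 had a negative log2 fold change, 0 passed the thresholds, 3 were lower at an unadjusted p under 0.05, and the median was -0.50 (-0.23 without the 3 samples, where 1 was higher and 5 lower at an unadjusted p under 0.05). Their summed level was lower in S+P C7 in 5 of 5 pairs, at 2495, 2071, 1985, 2335 and 2276 CPM against 2772, 3317 and 4519.8 CPM (lowest, median and highest) in S+P C4.

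*Satb1* (chromosome 17, 52043114 to 52140622), a chromatin organizer of resting T cells, measured 63.4, 15.3, 20.9, 8.18 and 15.8 CPM in each S+P C7 sample in turn. Its lowest, median and highest S+P C4 levels were 79.4, 252 and 741 CPM. The groups did not overlap, with replicate 1 the highest of S+P C7 and nearest to S+P C4. The log2 fold change of -3.69 ± 0.75 (SE) was the most negative among the named genes (unadjusted p = 2.53e-04, adjusted p = 0.71), and it was -3.00 without the 3 samples. *Klf2* (chromosome 8, 73072726 to 73075502), which drives the genes of T cell recirculation and overlaps *Eps15l1* on the other strand, measured 443, 459, 182, 215 and 164 CPM in S+P C7 and 331, 663 and 702 CPM in S+P C4. Its log2 fold change was -1.11 ± 0.27 (SE) (unadjusted p = 0.00125, adjusted p = 1.00). *Lef1* and *Tcf7*, encoding the related factors LEF1 and TCF-1, were picked with their values in view. *Lef1* had a log2 fold change of -1.22 (unadjusted p = 0.031), while *Tcf7* stood at -0.51 (unadjusted p = 0.242).

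Homing and adhesion genes had a median log2 fold change of -0.60 (-0.54 without the 3 samples, where 1 was higher and 8 lower at an unadjusted p under 0.05). Of 24 tested, 18 were negative, 3 had an unadjusted p under 0.05, all lower, and 0 passed the thresholds. *Ly6c2* (chromosome 15, 74980003 to 74988467), whose Ly6C protein marks effector-memory CD8 T cells, measured 2481, 392, 634, 339 and 176 CPM in the S+P C7 samples. Its S+P C4 levels were 755, 1645 and 3032 CPM (lowest, median and highest). It was lower in S+P C7 in 5 of 5 pairs, and of the S+P C7 samples replicate 1 alone lay inside the S+P C4 range. The log2 fold change was -1.64 ± 0.30 (SE) (unadjusted p = 8.82e-05, adjusted p = 0.63). *Ccr7* measured 21.6, 143, 30.5, 31.1 and 40.5 CPM in S+P C7 and 41.2, 168 and 1339 CPM in S+P C4, with a log2 fold change of -2.42 ± 0.72 (SE). Without the 3 samples the *Ccr7* groups did not overlap (log2 fold change -2.07, unadjusted p = 0.00112, adjusted p = 0.356).

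**Figure D3:**
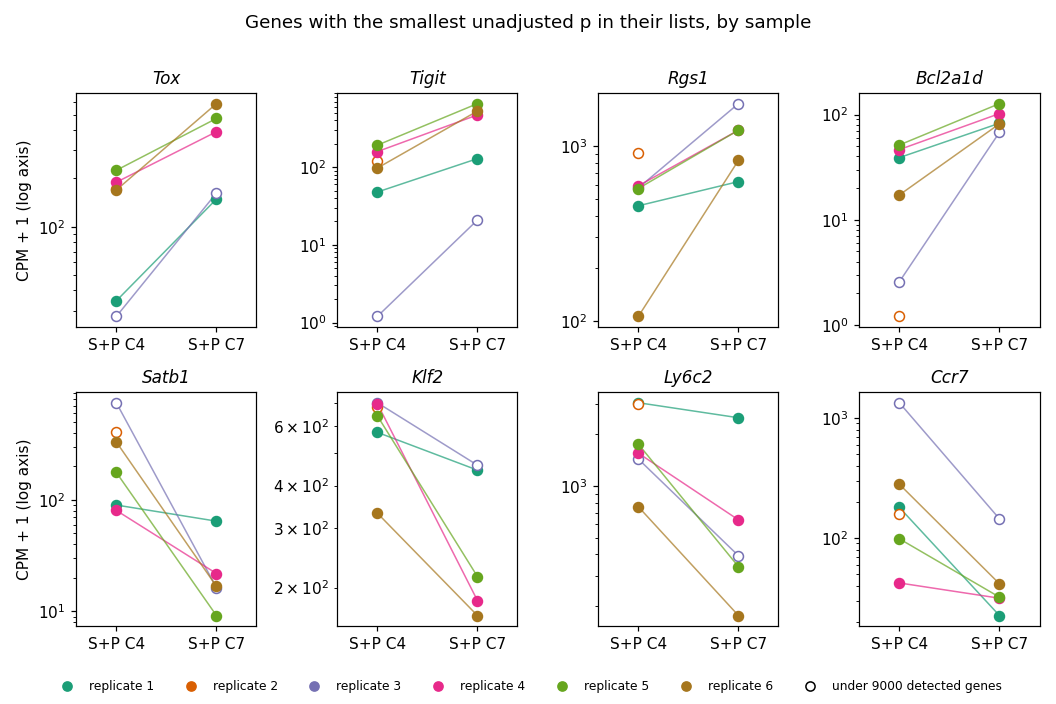
CPM + 1 (log axis) of 8 genes in S+P C4 and S+P C7, one point per sample and lines joining the same replicate number, with open points for samples under 9000 detected genes. The upper row is higher and the lower row lower in S+P C7 in 5 of 5 pairs, with 0 of the 8 past the thresholds in edgeR with the block.

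Cytokine receptor and signalling genes had a median log2 fold change of -0.64 over 33 tested, of which 23 were negative, 4 had an unadjusted p under 0.05 (all lower) and 0 passed the thresholds. Without the 3 samples the median was -0.22 and 3 were higher and 6 lower at an unadjusted p under 0.05. *Il7r* measured 97.5, 19.6, 111, 114 and 132 CPM in S+P C7 and 121, 395 and 1004 CPM (lowest, median and highest) in S+P C4. It was lower in 5 of 5 pairs, but the groups overlapped, since the 2 lowest S+P C4 samples lay below the highest S+P C7 sample. Its log2 fold change was -1.84 ± 0.59 (SE) (unadjusted p = 0.00769), and -1.03 without the 3 samples. *Ifngr1*, the ligand-binding chain of the interferon-gamma receptor, had a log2 fold change of -1.06 ± 0.41 (SE) and was lower in 5 of 5 pairs.

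The median over 25 costimulatory genes was 0.53 (0.53 without the 3 samples, where 8 were higher and 1 lower at an unadjusted p under 0.05), with 20 positive, 1 at an unadjusted p under 0.05 in each direction, and 0 past the thresholds. *Icos*, a costimulator of the CD28 family, measured 147, 28.6, 189, 391 and 169 CPM in S+P C7 and 25.4, 90.9 and 429 CPM in S+P C4. Its log2 fold change of 0.98 ± 0.37 (SE) became 1.32 without the 3 samples (unadjusted p = 2.09e-05, adjusted p = 0.156), where the groups did not overlap. *Cd226*, the activating receptor that competes with TIGIT for CD155, measured 242, 46.7, 72.8, 120.3 and 47.9 CPM in S+P C7 and 168, 234 and 539 CPM in S+P C4. It was lower in 5 of 5 pairs, with a log2 fold change of -1.37 ± 0.40 (SE) (unadjusted p = 0.0045, adjusted p = 1.00), the direction opposite to *Tigit*. *Cd226* overlaps *Dok6* on the other strand.

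Of 37 genes of T cell receptor signalling, feedback and anergy, 23 were positive, 4 were higher and 1 lower at an unadjusted p under 0.05, and 0 passed the thresholds (median 0.16). With the 3 samples left out, 6 were higher and 4 lower at an unadjusted p under 0.05. *Rgs1* (chromosome 1, 144118034 to 144124980), which limits chemokine receptor signals, measured 623, 1737, 1225, 1225 and 824 CPM in S+P C7 and 105, 571 and 906 CPM in S+P C4. It was higher in 5 of 5 pairs with a log2 fold change of 1.42 ± 0.28 (SE) (unadjusted p = 1.76e-04, adjusted p = 0.71), and its highest value came from the library labelled S+P C7 replicate 3. Without the 3 samples the groups did not overlap and the log2 fold change was 1.41. *Cd3g*, a chain of the CD3 complex, had a log2 fold change of 0.40 ± 0.15 (SE) and was higher in 5 of 5 pairs.

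Of 16 cytotoxic genes tested, 13 had a positive log2 fold change, 0 had an unadjusted p under 0.05 in either direction, and the median was 0.47 (0.20 without the 3 samples, where 5 were higher and 0 lower at an unadjusted p under 0.05). Their summed level was higher in S+P C7 in 2 of 5 pairs. *Nkg7*, a granule membrane protein, measured 4760.5, 4414, 4109.8, 3306 and 5130.4 CPM in S+P C7 and 2233, 3795 and 6531 CPM in S+P C4. *Gzmk*, which encodes granzyme K and overlaps *Esm1* on the other strand, was higher in S+P C7 in 5 of 5 pairs, with a log2 fold change of 1.31 ± 0.74 (SE) (unadjusted p = 0.0996). NK receptor and adaptor genes had a median of -0.22 over 16 tested (-0.80 over 15 without the 3 samples, where 1 was higher and 6 lower at an unadjusted p under 0.05), with 1 lower at an unadjusted p under 0.05. That gene was *Klrk1*, encoding the activating receptor NKG2D, at 1154, 199, 494, 449 and 267 CPM in S+P C7 and 631, 1079.9 and 1327 CPM in S+P C4, lower in 5 of 5 pairs (log2 fold change -1.14 ± 0.32 (SE), unadjusted p = 0.00325). *Klrg1*, a marker of terminal effector cells, measured 545, 0.0450, 116, 38.7 and 61.8 CPM in S+P C7 and 0, 182 and 494 CPM in S+P C4.

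The leading cytokine genes were at low levels. Of 17 chemokine and cytokine genes, 3 were higher at an unadjusted p under 0.05 and 0 passed the thresholds (median 0.44, and 0.12 without the 3 samples, where 5 were higher and 0 lower at an unadjusted p under 0.05). *Areg*, encoding amphiregulin, measured 9.62, 0, 3.27, 3.14 and 0 CPM in S+P C7 and was at 0 in 5 of 6 S+P C4 samples. *Il21*, a helper cytokine whose gene overlaps a noncoding one on the other strand, measured 7.56, 0, 2.22, 15.2 and 0 CPM in S+P C7 and was at 0 in 5 of 6 S+P C4 samples, with 3.14 CPM in replicate 5. *Il10*, an anti-inflammatory cytokine named after its values had been seen, measured 1.95, 0, 30.1, 29.0 and 18.7 CPM in S+P C7 and at most 4.02 CPM in S+P C4 (unadjusted p = 0.0353).

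Survival and death genes had a median of 0.06 over 20 tested, with 2 higher at an unadjusted p under 0.05. With the 3 samples left out, 8 were higher and 1 lower at an unadjusted p under 0.05. *Bcl2a1d*, of the prosurvival A1 family, measured 81.8, 66.8, 101, 126 and 80.7 CPM in S+P C7 and 0.202, 27.1 and 50.4 CPM in S+P C4 and was the only one of the 20 whose groups did not overlap (log2 fold change 2.24 ± 0.98 (SE), unadjusted p = 0.0389). It overlaps a noncoding gene on the other strand and has near-identical paralogs, so reads may be split or lost between them. *Gimap4*, a GTPase in this list, had a log2 fold change of 0.68 ± 0.20 (SE) and was higher in 5 of 5 pairs. In the list of S100, annexin and memory-associated genes (20 tested, median -0.09), *Emb*, an immunoglobulin-family protein that overlaps a noncoding gene on the other strand, had a log2 fold change of -1.19 ± 0.33 (SE), and *S100a11*, a calcium-binding protein, one of 0.74 ± 0.31 (SE). Of the constant genes of the gamma delta receptor, 3 of 5 were tested. *Trgc4* measured 16.5, 0.0900, 43.6, 86.4 and 261 CPM in S+P C7 and 0, 1.24 and 57.0 CPM in S+P C4, and *Trgc2* 111, 54.4, 152, 108 and 749 CPM and 0.294, 55.2 and 1333 CPM. These genes are close paralogs and their counts are uncertain.

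**Figure D4:**
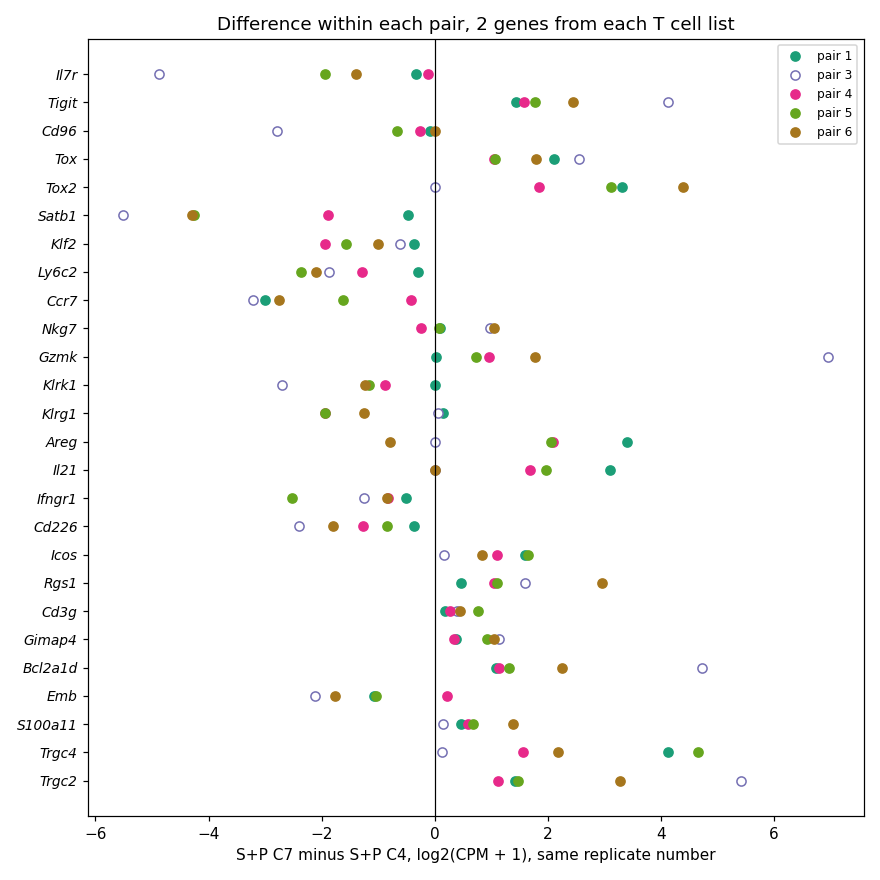
S+P C7 minus S+P C4 in log2(CPM + 1) for each of the 5 pairs, for the 2 genes with the smallest unadjusted p in each of 13 T cell gene lists, with pair 3 open. *Satb1*, *Klf2*, *Ly6c2*, *Ccr7*, *Il7r* and *Cd226* lie below 0 in 5 of 5 pairs, and *Tox*, *Tigit*, *Rgs1* and *Icos* above 0 in 5 of 5.

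Cell cycle and replication genes had the highest median of the 21 T cell and housekeeping lists. All 40 tested had a positive log2 fold change, with a median of 2.16, beside 0.19 over all genes, of which 8102 of 14016 were positive. 5 had an unadjusted p under 0.05 and 0 passed the thresholds. Their summed level in S+P C7 replicates 1, 3, 4, 5 and 6 was 1495, 4819, 4639.7, 2733 and 4123 CPM. In S+P C4 the lowest, median and highest sums were 676, 1289 and 1954 CPM. The highest sum belonged to the library labelled S+P C7 replicate 3, and S+P C7 replicate 1 lay inside the S+P C4 range and below its own partner. Without the 3 samples the median was 1.48, and 13 of the 40 had an unadjusted p under 0.05, all higher. *Hmgb2*, a chromatin protein of dividing cells, measured 398, 1494, 939, 569.6 and 612 CPM in S+P C7 and 158, 289 and 413 CPM in S+P C4 (log2 fold change 1.51 ± 0.37 (SE), unadjusted p = 0.00125). *Mki67*, which encodes the proliferation antigen Ki67 and was named after its values had been seen, measured 11.7, 738, 224, 149.8 and 252 CPM in S+P C7 and 0.0505, 27.4 and 69.7 CPM in S+P C4. In bulk samples, more cells in cycle and more of these transcripts per cell cannot be told apart.

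Ribosomal protein and mitochondrial genome transcripts were lower in the median, the latter only with the 3 samples included. Of 81 ribosomal protein genes, 73 had a negative log2 fold change (median -0.35), 14 were lower at an unadjusted p under 0.05 and 0 passed the thresholds. *Rps19*, of the small subunit, had a log2 fold change of -0.71 ± 0.24 (SE) (unadjusted p = 0.0116). The summed level of the 81 genes reached 169555 CPM in S+P C4 replicate 3 and lay between 36593 and 109539 CPM in the other 10 samples. Without the 3 samples the median was -0.24. The 13 protein-coding genes of the mitochondrial genome were all negative, with a median of -0.73, 4 lower at an unadjusted p under 0.05. Their sum was 185605 CPM in S+P C4 replicate 3 and at most 39570.4 CPM in the other 10 samples, and the median became 0.01 without the 3 samples. *mt-Nd2*, a subunit of complex I, measured 191, 789, 335, 386 and 244 CPM in S+P C7 and 223, 827 and 6196 CPM in S+P C4. Nuclear genes of oxidative phosphorylation had a median of 0.16 over 82 tested, beside 0.19 over all genes, with 54 positive and 28 negative. The summed level of these 82 genes was higher in S+P C7 in 5 of 5 pairs. Among them 1, *Sdhb* of complex II, was higher at an unadjusted p under 0.05.

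Interferon-stimulated genes had a median of 0.43 over 32 tested, and the 1 at an unadjusted p under 0.05 was *Ifi27l2a*, which measured 388, 731, 528, 805 and 466.2 CPM in S+P C7 and 88.4, 227 and 546 CPM in S+P C4. It was higher in 5 of 5 pairs with a log2 fold change of 1.47 ± 0.27 (SE) (unadjusted p = 8.99e-05, adjusted p = 0.63), and it overlaps *Ifi27* on the other strand, so that reads of the pair may not be told apart. Glycolysis genes had a median of -0.01 over 18 tested, and *Slc16a3*, a lactate exporter, was under 2.84 CPM in every sample. MHC class I presentation genes had a median of 0.00 over 14, and *H2-D1* a log2 fold change of -0.34 ± 0.13 (SE). Handling stress and immediate early genes, a sign of cell preparation, had a median of -0.33 over 21, and *Junb*, an AP-1 subunit that overlaps *Prdx2* on the other strand, a log2 fold change of -0.97 ± 0.35 (SE).

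**Figure D5:**
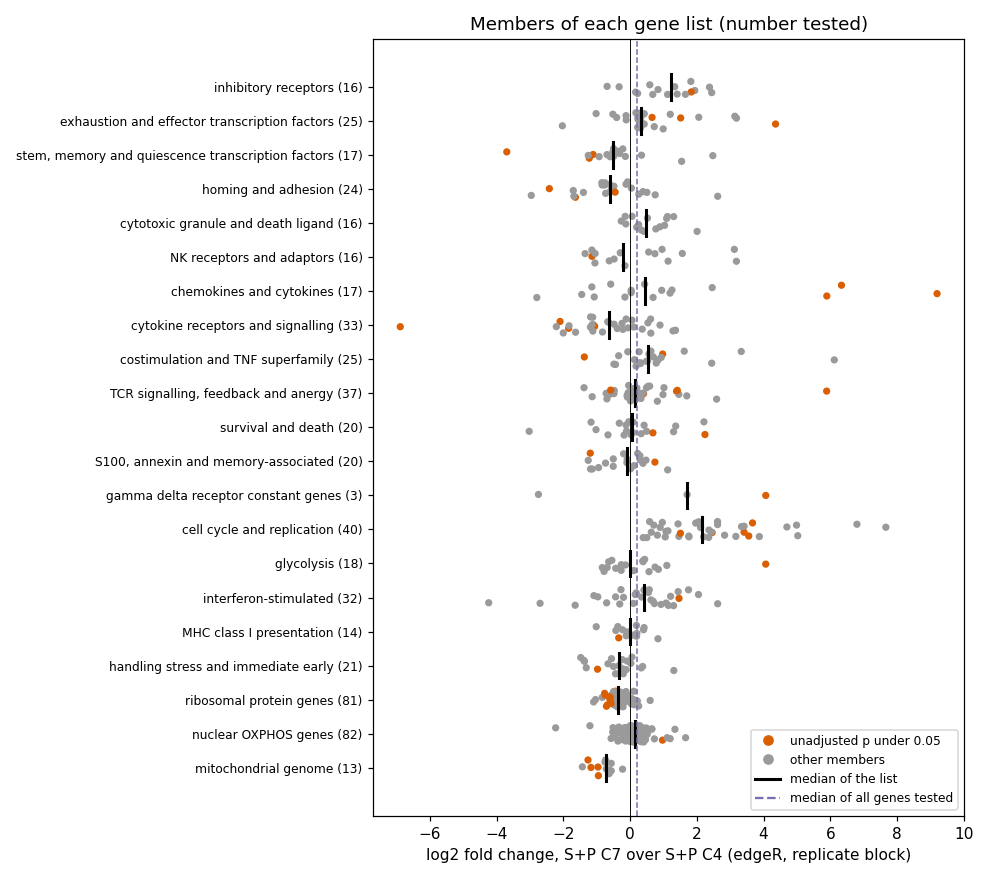
Log2 fold change of S+P C7 over S+P C4 for each tested member of 21 gene lists (number tested in parentheses), with the list median as a black bar, genes at an unadjusted p under 0.05 in orange and the median of all genes, 0.19, dashed. All 40 cell cycle genes lie above 0 and all 13 mitochondrial genome genes below it, with 0 members past the thresholds in edgeR with the block.

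4 genes outside the lists were at or under 3 counts in 6 of 6 S+P C4 samples and above 3 counts in 5 of 5 S+P C7 samples, and 0 genes showed the reverse. They were *Asb2*, *Erp27*, *Mxd3* and *Ska1*, named after their values had been seen. *Mxd3*, a transcription factor of the MYC network, measured 9.53, 31.5, 12.4, 1.92 and 19.0 CPM in S+P C7, a mean at least 108-fold higher than the floor of 3 counts per library averaged over S+P C4, and at least 78.1-fold without replicate 3. *Ska1*, which joins chromosomes to the spindle, measured 1.60, 63.5, 12.3, 10.2 and 7.46 CPM, at least 139-fold higher, and at least 57.5-fold without replicate 3. *Asb2*, a ubiquitin ligase subunit, measured 7.17, 15.03, 3.27, 3.97 and 7.34 CPM, at least 53.7-fold higher, and at least 39.7-fold without replicate 3. *Erp27*, of the protein disulfide isomerase family, measured 3.85, 101, 3.79, 0.883 and 4.38 CPM, at least 167-fold higher, and at least 23.5-fold without replicate 3. The highest value of each of the 4 belonged to the library labelled S+P C7 replicate 3. PCR copies were not told apart from separate molecules, and these floors cover counting error only. The 4 genes were picked by the same counts that give the folds, so the folds describe them and are not a test. Detection also differed between samples. S+P C4 replicates 2 and 3 had 8002 and 7436 detected genes, S+P C7 replicate 3 had 7879 and S+P C7 replicate 4 had 26805. The part of detection in the count of 4 genes against 0 was not tested.

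Against S+P C5, the subset that shares PD1 with S+P C7, 0 genes (0%) were called and 323 (2.3%) had an unadjusted p under 0.05, with a smallest adjusted p of 1.00 in edgeR, while DESeq2 called 566 with the block. *Klrg1* was 2.82 higher on the log2 scale in S+P C7 (unadjusted p = 0.00133), at 0 to 124 CPM in S+P C5. *Ifngr1* was 1.83 higher (unadjusted p = 9.30e-04), at 33.0 to 178 CPM in S+P C5. *Tox*, *Tigit*, *Satb1* and *Klf2* in S+P C5 ranged over 249 to 522 CPM, 171 to 901 CPM, 11.7 to 40.9 CPM and 154 to 427 CPM, and their unadjusted p against S+P C7 ran from 0.239 to 0.759.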

How the data were processed

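SmartSeq2 libraries, without molecular identifiers, were sequenced in a single run. Per the labels, the authors trimmed reads (cutadapt 3.4), aligned them to GRCm39 (STAR 2.6.1b) and counted them per gene (featureCounts 2.0.1), and deposited these raw counts for 55359 genes. The annotation release and strand option are not given in the sources used here. GENCODE M39 named 54749 genes.

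Technical libraries were summed per replicate. 1 S+P C4 library with counts identical to a Naive library was left out. The only S+P C7 replicate 2 library was nearly identical to 1 of replicate 1 (r = 0.999 over log2 CPM, against at most 0.953 between technical libraries) and was averaged with it as replicate 1. Counts of the 3 post-partum memory subsets (17 samples) were fitted by robust quasi-likelihood in edgeR 4.0.16 (TMM factors, genes kept by filterByExpr at a count of 10, two-sided tests, Benjamini-Hochberg adjustment) with the replicate number as a block. The numbers were used to pair the samples, since the column names share the number. Deviations from group means correlated at 0.113 to 0.250 in the 5 pairs. Between different numbers the mean was -0.02, with a range of -0.228 to 0.173 for S+P C4 with S+P C7, so the ranges overlapped. The 0.250 and the 0.173 both join samples under 9000 detected genes, and the part of library quality was not tested. DESeq2 1.42.0 was an alternative, and DESeq2 was the tool with which the study applied its thresholds. The code was tested on simulated data.

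Named genes were 6 surface markers, genes past the thresholds, the 2 members of smallest p in each T cell list and the 1 member of smallest p in each other list. Members and lists were chosen with earlier results of these data known. Alternatives were the fit, scaling, filters, thresholds, libraries and each replicate left out. Some items are not reported here. Some alternatives were added after seeing the data. They included DESeq2 with the block and edgeR with 7 groups and no block, both without the samples under 9000 detected genes. The edgeR fit without S+P C7 replicate 3 alone was also added then.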

Additional observations from a re-analysis of the deposited data

Results flagged for a closer look

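18 of 82 groups of values held a sample farther from the others than Dixon's 95% limit allows. Chance flags about 1 in 20 for independent groups of normal values. CPM need not be normal, the groups share samples, and a single nonzero value among zeros is always flagged. The 18 flags therefore cannot be read as an excess over chance. S+P C4 replicate 3 was high for *Izumo1r* (187 CPM), *Ccr7* (1339 CPM), *Emb* (979.7 CPM), *Rps19* (6501 CPM) and *mt-Nd2* (6196 CPM), and it had the fewest detected genes of the 11 samples. S+P C4 replicate 2 was high for *Icos* (429 CPM) and *Trgc2* (1333 CPM). The library labelled S+P C7 replicate 3 was high for *Ccr7* (143 CPM) and *Rps19* (2558 CPM). S+P C7 replicate 1, which rests in part on the 2 nearly identical libraries, was high for *Satb1* (63.4 CPM), *Ly6c2* (2481 CPM) and *Klrg1* (545 CPM). S+P C4 replicate 6 was low for *Klf2* (331 CPM) and high for *Areg* (0.720 CPM) and *Trgc4* (57.0 CPM). Single high values were also *Il21* in S+P C4 replicate 5 (3.14 CPM), *Slc16a3* in S+P C4 replicate 4 (0.578 CPM) and *Trgc2* in S+P C7 replicate 6 (749 CPM).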

How the results depend on the processing

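S+P C7 against S+P C4 gave 0 calls under most alternatives, and 1 call without a block with all 7 groups (*Satb1*, lower), 30 with technical libraries as separate samples, which treats repeat libraries as independent, 685 in DESeq2 with the replicate block, 314 in DESeq2 without it, and 3620 in DESeq2 with the block without the 3 samples. Leaving out each replicate gave 0 to 1 calls, the 1 being *Ifi27l2a* without replicate 3. Members of the fixed lists called numbered 0, and 1, 14, 17, 7 and 73 under those 5 settings, with 0 to 1 when a replicate was left out. Whether these shares exceed those over all genes was not tested. S+P C7 against S+P C5 gave 16 calls with separate libraries, 566 and 186 in DESeq2 with and without the block, and 3248 in DESeq2 without the 3 samples. The cause of these differences was not tested. The edgeR fit without the replicate block also called 0, with 503 genes at an unadjusted p under 0.05.

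Of 970 values of named genes under alternatives, 21 turned direction, in 4 genes. *Izumo1r* turned to -0.0275, -0.0348, -0.0362, -0.16, -0.18, -0.37, -0.46, -0.10, -0.0908 and -0.48 without the block (3 or 7 groups), with only the 2 subsets fitted, in DESeq2 without the block, without replicates 2, 4 and 5, with the identical library kept, with replicate 2 on its own and with all libraries as labelled. It ran from -0.46 to 1.08 when a replicate was left out. *Cd44* turned to 0.0112 under library size alone, 0.0655 with separate libraries, 0.22 without replicate 3 (from -0.30 over the replicates left out), 0.33, 0.31 and 0.36 without the 3 samples (edgeR and DESeq2 with the block, and 7 groups without it) and 0.22 without S+P C7 replicate 3 alone. *Trgc2* turned to -0.15, -0.18 and -0.10 without the block (edgeR with 3 and 7 groups, and DESeq2), and *H2-D1* to 0.0146 with all libraries as labelled. Detected genes per pair differed by 1911 to 4861 and the rRNA share by -4.75 to -0.28 points with 1 pair left out. Precision was limited by 5 pairs and by 200 cells a library.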
